A study of Mus musculus with 9 samples.

Results

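The genes described here are 49 genes of the cell division cycle in mouse lung RNA, 21 that act in or towards S phase, when DNA is copied, and 28 that act in mitosis, when the copies are separated. They were chosen by name from the 21930 protein-coding genes of the deposited count table, with earlier results of these data known. All 49 had enough reads to enter the test, which covered 15636 genes. The study had 3 groups of 3 male C57BL/6 mice of 6 to 8 weeks, each library being a separate biological replicate. The control group received saline in the trachea, the LPS group received 2 mg/kg of lipopolysaccharide (LPS, a bacterial cell wall component sensed by innate immune cells) and then vehicle by mouth. The RSBD group received the same LPS and then Renshen Baidu Powder (RSBD), a Chinese herbal medicine, as a decoction. Gavage was daily from the day after LPS, for 5 days per the labels, and tissue was collected on day 5. All animals shared tribromoethanol anaesthesia and instillation into the trachea, and the labels do not say whether control mice were gavaged. The design asks what LPS does to transcripts of the lung and whether RSBD shifts them.

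A dividing cell first licenses its replication origins by loading the Mcm helicase, then copies its DNA in S phase under E2F transcription factors and cyclin E, and then enters mitosis under cyclin B and Cdk1. Genes for replication are switched on earlier in the cycle than genes for the spindle, the kinetochore and cytokinesis, many of which depend on FoxM1 and on the DREAM and B-Myb complexes. In adult lung most cells rest, and after injury epithelial cells, endothelial cells and immune cells can all re-enter the cycle. In whole tissue, fewer cells of a type and less RNA per cell cannot be told apart, and neither can which cell type divides.

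Libraries held 26959662 to 36113905 counts. The 49 genes took 0.0374% to 0.0474% of the counts in control libraries, 0.0589% to 0.0668% in LPS libraries and 0.0504% to 0.0793% in RSBD libraries. Lung markers were present throughout, with the surfactant genes and other markers of alveolar type 2 cells summing to 9925 to 15966 CPM (counts scaled to library size, here after TMM). All libraries are labelled male, yet the 3 control libraries held 6, 7 and 9 reads over the 172 Y chromosome genes in the table, against 7511 to 10918 in each of the other 6. Each comparison with control is therefore also one of libraries without and with Y transcripts, and the part of that difference in the results cannot be told apart from LPS or RSBD.

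The promoters show how the S phase and mitotic genes differ in sequence. Of the 49 genes, 40 had a promoter in the RefSeq table (build GRCm38.p6), 17 of S phase and 23 of mitosis, taken as 250 bases before the annotated start to 50 after it. Each was searched on both strands for E2F words (TTTCCCGC, TTTGGCGC, TTTCGCGC or TTTGCCGC), the CCAAT box bound by NF-Y (CCAAT) and the cell cycle homology region, or CHR (TTTGAA or TTTAAA). A gene with more than a single promoter window counted as holding a motif if any of its windows did. The first 160 bases before the start are shown for 6 genes. Mcm5 and Mcm6 stand for the helicase genes, Cdk1 for a mitotic gene with all 3 motifs, Ccnb2 and Top2a for mitotic genes with several CCAAT boxes, and Bub1 for the mitotic gene with the lowest fold change after LPS. Capitals mark the motif words, on either strand, and where 2 words overlap they form a single run. 
Mcm5, chr8:75109349-75109508, plus strand: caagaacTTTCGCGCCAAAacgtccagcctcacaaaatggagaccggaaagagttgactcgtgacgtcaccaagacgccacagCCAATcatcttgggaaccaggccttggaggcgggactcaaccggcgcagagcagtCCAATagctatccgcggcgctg
Mcm6, chr1:128359706-128359865, minus strand: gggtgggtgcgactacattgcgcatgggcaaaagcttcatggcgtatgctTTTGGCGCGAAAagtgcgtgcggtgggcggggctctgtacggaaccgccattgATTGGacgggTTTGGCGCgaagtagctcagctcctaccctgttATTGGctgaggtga
Cdk1, chr10:69352913-69353072, minus strand: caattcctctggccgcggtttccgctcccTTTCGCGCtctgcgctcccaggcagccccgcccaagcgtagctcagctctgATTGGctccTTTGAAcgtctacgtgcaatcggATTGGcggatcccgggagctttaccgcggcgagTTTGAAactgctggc
Ccnb2, chr9:70421555-70421714, minus strand: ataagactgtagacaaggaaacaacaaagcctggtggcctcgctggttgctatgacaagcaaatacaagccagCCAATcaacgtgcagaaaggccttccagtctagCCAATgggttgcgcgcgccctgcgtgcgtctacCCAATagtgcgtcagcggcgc
Top2a, chr11:99024190-99024349, minus strand: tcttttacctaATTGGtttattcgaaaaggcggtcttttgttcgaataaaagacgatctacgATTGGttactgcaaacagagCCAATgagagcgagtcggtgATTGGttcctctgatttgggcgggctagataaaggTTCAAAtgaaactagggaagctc
Bub1, chr2:127831860-127832019, minus strand: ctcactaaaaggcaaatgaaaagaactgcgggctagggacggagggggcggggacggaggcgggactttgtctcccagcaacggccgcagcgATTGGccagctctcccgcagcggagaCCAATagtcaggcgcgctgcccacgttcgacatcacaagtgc

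E2F words occurred in 7 of the 17 S phase promoters (41.2%), those of Cdc6, Cdt1, Mcm3, Mcm5, Mcm6, Mcm7 and Uhrf1. The E2F and CHR words of Uhrf1 lay only in its window starting at chr17:56304063, not in that starting at chr17:56303087. Among mitotic promoters only that of Cdk1 held one (1 of 23, 4.35%), against 4.22% of the 12238 tested genes with a promoter in the table. CHR words were in 20 of 23 mitotic promoters (87.0%), in 7 of 17 S phase promoters (41.2%) and in 23.5% of tested genes. The CCAAT box was in 19 mitotic promoters (82.6%), in 11 S phase promoters (64.7%) and in 42.3% of tested genes. Both a CCAAT box and a CHR were found in 18 mitotic promoters (78.3%), in 5 S phase promoters (29.4%) and in 10.9% of tested genes. The Mcm5 and Mcm6 promoters each hold a run in which E2F words of both strands overlap. The CHR of Ccnb2 nearest its start lies just after it, outside the stretch shown. Such matches describe the letters of these windows and not sites in use.

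**Figure D1:**
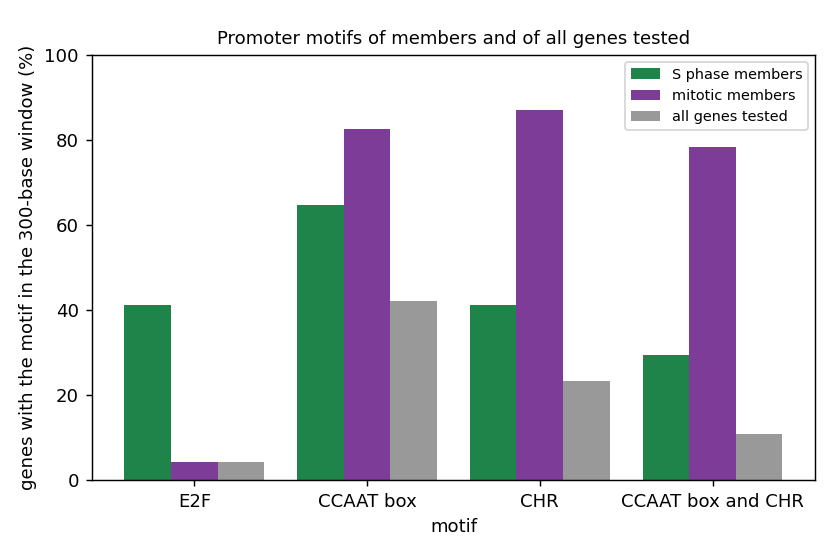
Share of genes (%, vertical axis) with each motif in any of their promoter windows, for 17 S phase members (green), 23 mitotic members (purple) and 12238 tested genes (grey). E2F words are more frequent in the S phase promoters (41.2%) and the CCAAT box with a CHR in the mitotic ones (78.3%).

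After LPS genes of both sets rose, with a larger median fold change and more calls in the mitotic set. The difference between the sets was not tested. In edgeR's quasi-likelihood test (Benjamini-Hochberg adjustment over every gene tested), 13 of 28 mitotic genes and 5 of 21 S phase genes rose against control at an adjusted p below 0.05, and 0 of either fell. Over all tested genes 8.79% rose and 8.63% fell. The median log2 fold change was 1.09 for mitotic genes (range -0.39 to 1.74), 0.53 for S phase genes (range -0.28 to 2.55) and -0.01 for all tested genes. All 3 LPS libraries lay above all 3 control libraries for 27 of 28 mitotic genes and 12 of 21 S phase genes, against 18.6% of tested genes. At an unadjusted p below 0.05 stood 24 mitotic genes, 10 S phase genes and 34.5% of tested genes. The counts of members called fell when any single control or LPS library was left out, which also leaves a smaller group to test. Over all genes 2723 were called with every library and 1924, 892 or 999 without control 1, 2 or 3. Without LPS 1, 2 or 3 the count over all genes was 2870, 786 or 1631, so it rose without LPS 1. The medians moved from 0.86 to 1.21 for mitotic genes and from 0.42 to 0.57 for S phase genes as single libraries were left out. Without control 1, 2 or 3 the mitotic count was 1, 4 or 3, and without LPS 1, 2 or 3 it was 1, 2 or 4. The S phase count was 1 without control 1, 2 or 3 or without LPS 2, and 3 without LPS 1 or LPS 3. DESeq2 called 20 mitotic and 8 S phase genes, and limma on log2(TPM + 1) called 7 and 3. Over all genes DESeq2 called 3840 (2013 higher) and limma on log2(TPM + 1) called 1996 (696 higher).

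**Figure D2:**
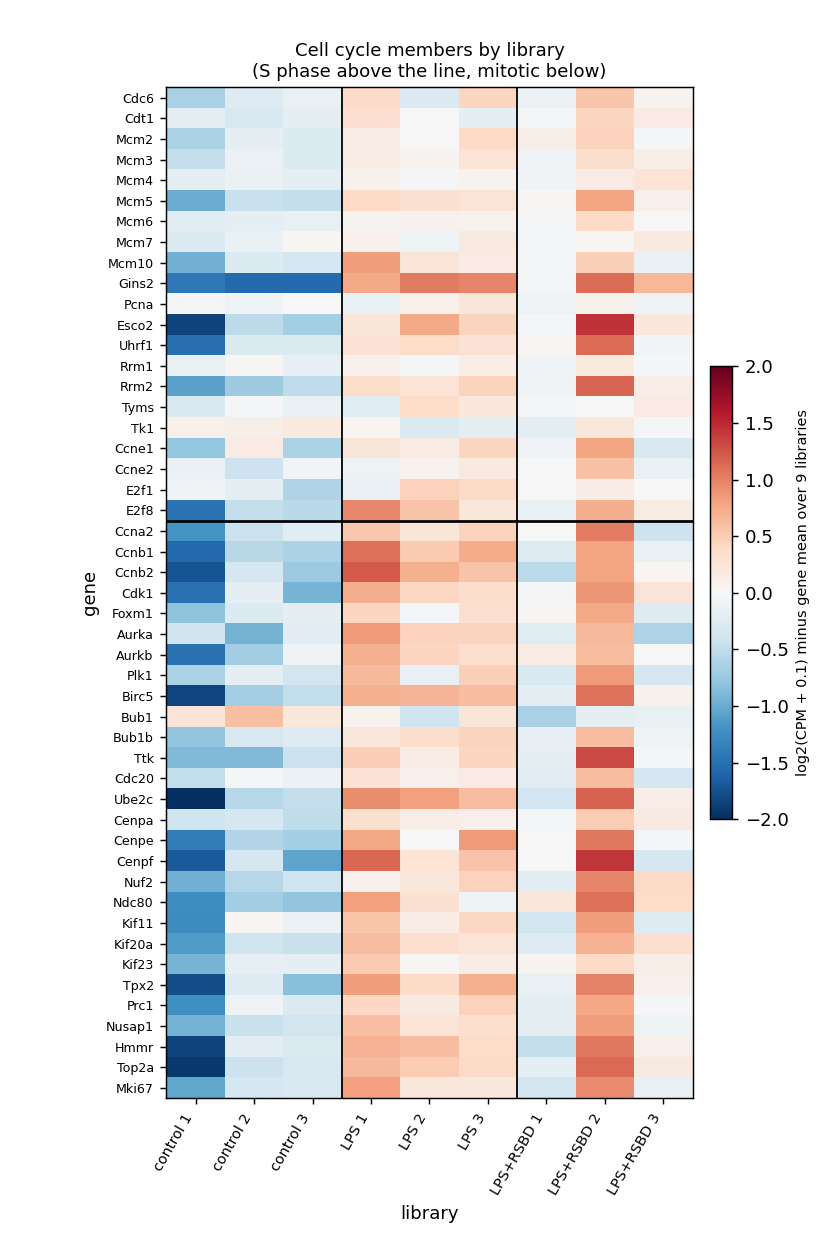
Heat map of the 49 genes (rows, S phase above the line and mitotic below) in the 9 libraries (columns), coloured by log2(CPM + 0.1) minus the gene's mean over the 9 libraries. Control 1 is the lowest control library for 38 genes, and RSBD 2 is the highest RSBD library for 45.

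**Figure D3:**
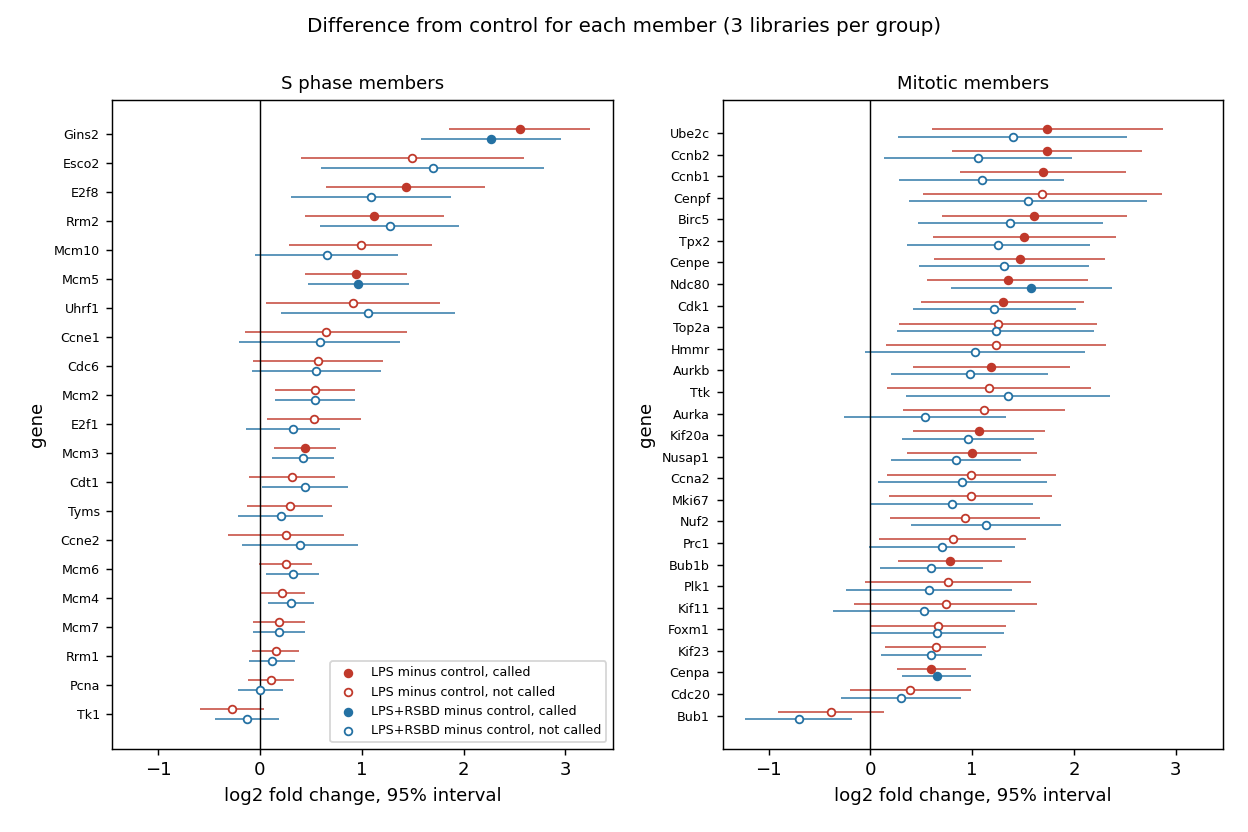
Log2 fold change from control (horizontal axis, with its 95% interval) for each gene (vertical axis). S phase genes are on the left and mitotic genes on the right, with LPS in red and RSBD in blue. Filled points are genes past the threshold. Over both panels LPS has 18 filled points and RSBD 4, and 27 of 28 mitotic genes lie above 0 for each.

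Levels below are CPM of mice 1, 2 and 3 of a group in that order, and fold changes are log2 with their standard error from the fit over all 9 libraries. Origin licensing and the helicase came first in the cycle, and 3 of its 10 genes rose after LPS (median 0.49). Mcm5, a helicase subunit, stood at 6.02, 8.82 and 8.65 in control, 15.9, 14.9 and 14.5 in LPS and 12.2, 20.9 and 12.9 in RSBD. Every LPS and RSBD library lay above every control library, and the rise after LPS was 0.95 ± 0.23 (adjusted p = 0.0225). Mcm3, another subunit, stood at 17.1, 21.8 and 19.6 in control, 26.4, 24.6 and 28.7 in LPS and 22.6, 30.3 and 25.8 in RSBD. Its rise was smaller, 0.45 ± 0.14 (adjusted p = 0.0489), with the groups again apart. The other subunits of the same ring were not called, with Mcm2 at 0.54 (adjusted p = 0.0602), Mcm4 at 0.22, Mcm6 at 0.26 and Mcm7 at 0.18. The 6 subunits, which act as a single ring, differed 1.14-fold to 1.93-fold between LPS and control. Mcm10, which helps to activate the helicase, stood at 0.99 ± 0.32 (adjusted p = 0.0547), and the licensing factors Cdc6 and Cdt1 at 0.57 and 0.31 with adjusted p of 0.187 and 0.273.

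Gins2 encodes a subunit of the GINS complex of the active helicase. It stood at 1.06, 0.955 and 0.961 CPM in control, 5.13, 6.30 and 6.03 in LPS and 2.93, 6.65 and 4.8 in RSBD. Its rise after LPS was the largest of the 49 genes, 2.55 ± 0.31 (5.86-fold, adjusted p = 0.00282), and it was also higher in RSBD than in control (2.27 ± 0.31, adjusted p = 0.0103). This value is uncertain, because 67.3% of the exon bases of Gins2 in GENCODE M21 lie over exons of Gse1 on the opposite strand, and the strand setting of the counting is not given in the sources used here. Gse1 was lower after LPS, at 161 ± 20.7 CPM (SD, n = 3) in control and 71.2 ± 14.1 in LPS, a log2 change of -1.17 ± 0.14 (adjusted p = 0.00277). The part of Gse1 reads in the Gins2 counts was not tested.

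The genes of the replication fork, cohesion and chromatin gave no call. Pcna, the sliding clamp of DNA polymerases and the most abundant of the 49 genes per length (98.4 TPM in both control and LPS), stood at 80.4, 78.4 and 82.1 CPM in control, 74.6, 88.3 and 96.8 in LPS and 76.3, 87.3 and 78.1 in RSBD. The groups overlapped, and the difference after LPS was 0.11 ± 0.10 on the log2 scale (95% interval -0.12 to 0.33). Pcna has 2 named pseudogenes in M21, which could share reads. Esco2, which acetylates cohesin during replication, stood at 1.5 ± 0.49 (adjusted p = 0.0604) and Uhrf1, which guides maintenance of DNA methylation, at 0.91 ± 0.38 (adjusted p = 0.122).

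Among the genes of nucleotide supply 1 of 4 rose. Rrm2, the regulated small subunit of ribonucleotide reductase, stood at 3.73, 4.78 and 5.52 CPM in control, 10.2, 9.53 and 10.8 in LPS and 7.51, 17.8 and 8.65 in RSBD. Its rise after LPS was 1.12 ± 0.31 (2.17-fold, adjusted p = 0.0358). Its partner Rrm1, the large subunit, differed by 0.15 ± 0.10 (adjusted p = 0.315). Tk1, the thymidine kinase of the salvage pathway, was the only S phase gene with a negative value, -0.28 ± 0.14 (adjusted p = 0.2), with all 3 LPS libraries below all 3 control libraries. Thymidylate synthase, Tyms, stood at 0.29 (adjusted p = 0.296).

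Of the 2 E cyclins and 2 E2F factors, the repressor E2f8 rose. It stood at 1.13, 2.36 and 2.24 CPM in control, 6.58, 5.00 and 3.89 in LPS and 2.99, 5.55 and 3.67 in RSBD. The log2 change after LPS was 1.43 ± 0.35 (2.69-fold, adjusted p = 0.0256), and the control libraries lay below all the others. E2f1, an activator, stood at 0.53 ± 0.21 (adjusted p = 0.0996), and the cyclins Ccne1 and Ccne2 at 0.65 and 0.26 with overlapping groups. Ccne2 stood at -0.12 on the log2(TPM + 0.1) scale.

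In mitosis, the cyclins and their kinase gave 3 calls among 5 genes. Ccnb1, cyclin B1, stood at 1.23, 2.58 and 2.42 CPM in control, 8.28, 5.52 and 6.47 in LPS and 3.18, 6.68 and 3.45 in RSBD. Its rise after LPS was 1.70 ± 0.37 (3.24-fold, adjusted p = 0.0152), and Ccnb1 and Gins2 were called after LPS under each of the 16 alternatives run, unlike the other 16 called genes. Those 16 were called under 5 (Mcm3) to 12 (Mcm5 and Ccnb2) of the alternatives. Ccnb2, cyclin B2, stood at 1.27, 3.44 and 2.63 in control, 10.5, 7.28 and 6.65 in LPS and 3.04, 7.71 and 4.58 in RSBD, with a rise of 1.73 ± 0.42 (adjusted p = 0.0242). Both cyclins have a named pseudogene in M21. Cdk1, the kinase they activate, stood at 1.34, 3.50 and 2.03 in control, 6.61, 5.29 and 5.09 in LPS and 3.89, 7.39 and 4.76 in RSBD. Its rise was 1.30 ± 0.36 (adjusted p = 0.0364), and no LPS or RSBD library was as low as any control library. Cyclin A2 (Ccna2) and the transcription factor Foxm1 stood at 0.99 and 0.67 with adjusted p of 0.0907 and 0.14.

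The chromosomal passenger complex corrects the attachment of chromosomes to the spindle, and its kinase Aurkb and its subunit Birc5 (survivin) both rose. Birc5 stood at 0.915, 2.17 and 2.46 CPM in control, 5.80, 5.71 and 5.42 in LPS and 3.10, 7.55 and 3.74 in RSBD, a rise after LPS of 1.61 ± 0.41 (3.05-fold, adjusted p = 0.0278). Aurkb stood at 1.2, 2.13 and 3.31 in control, 5.87, 4.77 and 4.47 in LPS and 3.98, 5.55 and 3.53 in RSBD, a rise of 1.19 ± 0.35 (adjusted p = 0.0427). For both genes each LPS and RSBD library exceeded each control library. The kinases Aurka, of the spindle poles, and Plk1, of mitotic entry, stood at 1.12 (adjusted p = 0.0555) and 0.76 (adjusted p = 0.171).

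In the spindle checkpoint and the anaphase promoting complex, 2 of 5 genes rose. Bub1b, the checkpoint protein BubR1, stood at 6.16, 8.60 and 9.0 CPM in control, 12.6, 13.6 and 14.6 in LPS and 9.54, 16.5 and 9.96 in RSBD, a rise after LPS of 0.78 ± 0.23 (adjusted p = 0.0431). Ube2c, the ubiquitin-conjugating enzyme of the complex, stood at 0.809, 2.87 and 3.06 in control, 8.25, 7.61 and 6.65 in LPS and 3.26, 9.81 and 4.73 in RSBD. Its rise was 1.74 ± 0.51 (3.33-fold, adjusted p = 0.0441), and 22.8% of its exon bases lie over Tnnc2 on the opposite strand, which had 0 CPM in every control and LPS library. Bub1, a checkpoint kinase singled out after its values were seen, was the only mitotic gene with a negative value. It stood at 6.23, 7.93 and 6.01 in control, 5.46, 3.89 and 6.11 in LPS and 3.26, 4.49 and 4.65 in RSBD. Its log2 difference was -0.39 ± 0.23 after LPS (adjusted p = 0.27, groups overlapping) and -0.70 ± 0.24 between RSBD and control (adjusted p = 0.115), where all 3 RSBD libraries were below all 3 control libraries. Ttk, another checkpoint kinase, stood at 1.16 (adjusted p = 0.0984) and Cdc20, the activator of the complex, at 0.39 (adjusted p = 0.323).

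At the kinetochore, where chromosomes bind the spindle, 3 of 5 genes rose. Cenpa, the histone variant that marks centromeres, stood at 10.9, 11.4 and 10.1 CPM in control, 18.1, 15.8 and 15.4 in LPS and 14.2, 20.6 and 16.4 in RSBD. The change after LPS was 0.60 ± 0.15 (1.52-fold, adjusted p = 0.0278), small beside that of the motor Cenpe, which stood at 1.51, 2.74 and 2.56 in control, 7.17, 4.18 and 7.56 in LPS and 4.17, 8.71 and 4.07 in RSBD. Cenpe rose by 1.47 ± 0.38 (2.77-fold, adjusted p = 0.0289). Ndc80, which grips microtubules, stood at 0.915, 1.37 and 1.28 in control, 4.12, 2.84 and 2.14 in LPS and 2.69, 5.03 and 2.98 in RSBD, with a rise of 1.35 ± 0.36 (adjusted p = 0.031). All 5 genes of this group, Cenpf (1.69, adjusted p = 0.0529) and Nuf2 (0.93, adjusted p = 0.0789) included, had LPS and RSBD libraries above every control library.

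Of 7 genes of the spindle, its motors and cytokinesis, 3 rose. Tpx2, which nucleates spindle microtubules, stood at 1.58, 4.68 and 3.10 CPM in control, 10.1, 7.38 and 9.30 in LPS and 5.05, 11.4 and 6.03 in RSBD, a rise after LPS of 1.51 ± 0.40 (2.85-fold, adjusted p = 0.0337). Kif20a, a kinesin of cytokinesis, stood at 1.97, 3.34 and 3.24 in control, 6.87, 5.65 and 5.42 in LPS and 3.73, 7.29 and 5.63 in RSBD, a rise of 1.07 ± 0.29 (adjusted p = 0.0356). It shares 29.3% of its exon bases with Cdc23 on the opposite strand, which differed by 0.05 ± 0.09 (adjusted p = 0.733). Nusap1, a microtubule-binding protein of the spindle, stood at 3.45, 4.90 and 5.16 in control, 10.3, 8.13 and 8.54 in LPS and 5.92, 12.0 and 6.25 in RSBD, a rise of 0.99 ± 0.29 (adjusted p = 0.0411). The kinesins Kif11 and Kif23, the cytokinesis protein Prc1 and the spindle protein Hmmr stood at 0.74, 0.64, 0.81 and 1.23, all with LPS above control in every library pair and none called.

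Top2a, the topoisomerase that untangles sister chromatids, was at 5.14, 14.7 and 16.0 CPM in control, 31.3, 28.3 and 26.1 in LPS and 17.6, 44.0 and 22.6 in RSBD. The groups did not overlap between LPS and control, with control 1 well below the other controls, and the difference of 1.26 ± 0.43 had an adjusted p of 0.0735. Mki67, the proliferation marker Ki-67, stood at 0.98 ± 0.35 (adjusted p = 0.0852).

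In M21, 14 of the 49 genes share some exon bases with another gene. Leaving out Gins2, Ube2c and Kif20a, the 3 genes with over 20% of exon bases shared with a neighbour, 4 of 20 S phase genes and 11 of 26 mitotic genes had risen after LPS, with medians of 0.49 and 1.06. Lower S phase genes had larger fold changes. Across the 21 genes Pearson's r between log2 mean TPM and log2 fold change was -0.64 (Spearman's rho -0.77), and across the 28 mitotic genes it was -0.21 (rho -0.18). These are relations across genes of the same 9 libraries, not over replicates, and low genes have wider errors. Per length, the S phase set was dominated by Pcna, and its summed TPM was 247 in control (224 to 260 over libraries) and 271 in LPS (254 to 293). The mitotic set summed to 83.7 TPM in control (54.9 to 98.8) and 154 in LPS (134 to 190.04).

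**Figure D4:**
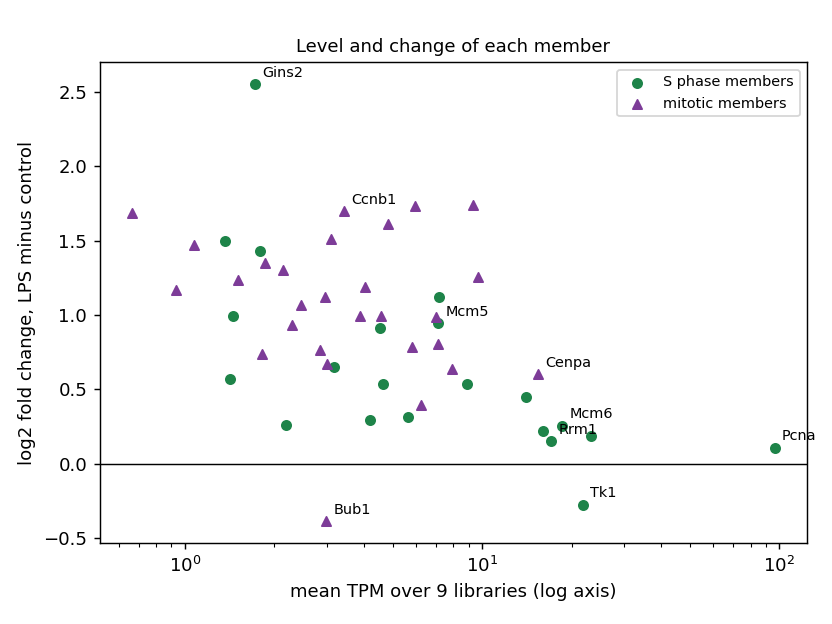
Mean TPM over the 9 libraries (horizontal, log axis) against the log2 fold change of LPS over control (vertical), 1 point per gene, S phase and mitotic members in different colours and shapes. Low S phase genes such as Gins2 lie highest and Pcna lies near 0.

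No member passed the threshold between RSBD and LPS. Against LPS, edgeR called 0 of 49 members and 0 of 15636 genes, and 0 members had an unadjusted p below 0.05, against 9.42% of tested genes. DESeq2 called 159 genes and 0 members, and limma on log2(TPM + 1) called 1 gene and 0 members. The median log2 fold change was 0.00 for S phase genes (range -0.34 to 0.20) and -0.15 for mitotic genes (range -0.68 to 0.23). A negative value was found for 24 of 28 mitotic genes, and for 7436 of the 15636 tested genes, whose median was 0.01. No member had its RSBD libraries all below or all above the LPS libraries, where 5.46% and 7.18% of tested genes did. The lowest values were those of Ccnb2, -0.68 (95% interval -1.57 to 0.22), Ccnb1, -0.61 (-1.39 to 0.18), and Aurka, -0.58 (-1.36 to 0.20). The 95% interval of a gene reached a median of 0.78 to either side for mitotic genes and 0.46 for S phase genes. The mitotic median moved from -0.53 to 0.04 as single libraries were left out.

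Between RSBD and control, 2 S phase genes and 2 mitotic genes rose and 0 fell, against 1.89% and 1.8% of tested genes. This comparison shares its control libraries with the one above. Gins2 rose by 2.27 as given above, Mcm5 by 0.97 ± 0.22 (adjusted p = 0.0455), Cenpa by 0.65 ± 0.15 (adjusted p = 0.0465) and Ndc80 by 1.58 ± 0.36 (adjusted p = 0.0414). The medians were 0.44 for S phase genes and 0.97 for mitotic genes. All RSBD libraries exceeded all control libraries for 15 S phase and 17 mitotic genes, against 15.4% of tested genes. The mitotic calls were lost without control 1, 2 or 3, LPS 2 or RSBD 2, and 1 was left without LPS 3, RSBD 1 or RSBD 3. The S phase count fell to 1 without control 1, 2 or 3, LPS 2, LPS 3 or RSBD 2. DESeq2 called 6 S phase genes higher, 11 mitotic genes higher and 1 mitotic gene (Bub1) lower, and limma on log2(TPM + 1) called 1 S phase and 0 mitotic genes. Over all genes DESeq2 called 900 higher and 857 lower, and limma on log2(TPM + 1) called 90 and 185.

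The spread within groups was shared by the members. A score for each library, the mean over members of log2 CPM minus the gene's mean over the 9 libraries, was -1.2, -0.37 and -0.42 for mitotic genes in control 1 to 3, 0.64, 0.29 and 0.41 in LPS and -0.18, 0.86 and -0.03 in RSBD. The S phase scores were -0.64, -0.29 and -0.34 in control, 0.23, 0.20 and 0.26 in LPS and -0.05, 0.54 and 0.07 in RSBD. RSBD 2 had the highest score of all 9 libraries on both scales, and RSBD 1 and RSBD 3 lay between control and LPS on both. Mitotic minus S phase scores were -0.56, -0.08 and -0.08 in control, 0.41, 0.09 and 0.15 in LPS, and -0.14, 0.31 and -0.10 in RSBD. These differences are relative to each gene's own mean and restate the larger mitotic fold change, while in summed TPM the S phase set was the higher in each group. RSBD 2 was the highest RSBD library for 27 of 28 mitotic and 18 of 21 S phase genes, against 32.8% of tested genes. Control 1 was the lowest control library for 24 mitotic and 14 S phase genes, against 32.9% of tested genes. LPS 1 was the highest LPS library for 23 mitotic genes but for only 6 S phase genes, against 36.7% of tested genes.

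**Figure D5:**
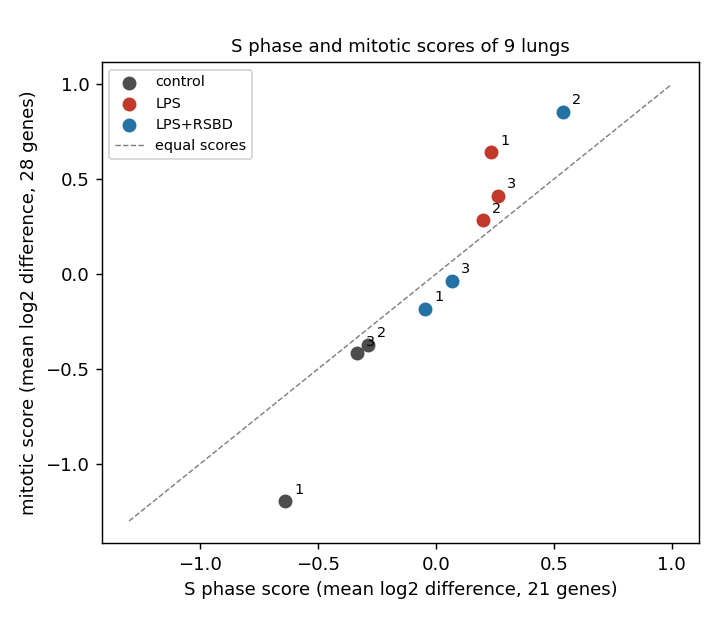
S phase score (horizontal) and mitotic score (vertical) of each library, both mean log2 differences from the mean over the 9 libraries, numbered by mouse, with a dashed line where the scores are equal. The 3 LPS libraries and RSBD 2 lie above the line, and control 1 lies furthest below at -1.2 on the mitotic axis.

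Further genes of the pathway were taken from lists of named genes. Of 52 other mitotic genes 16 rose after LPS (median 0.99) and 0 fell, and of 43 other S phase genes 6 rose (median 0.26) and 0 fell, beside 8.79% higher and 8.63% lower over all tested genes. Racgap1, of the central spindle, stood at 7.35, 7.29 and 8.15 CPM in control, 20.2, 17.1 and 14.8 in LPS and 13.4, 19.7 and 13 in RSBD. It rose by 1.19 ± 0.19 after LPS (adjusted p = 0.00576) and by 1.01 ± 0.19 between control and RSBD (adjusted p = 0.0239). Ncaph, a condensin subunit, rose by 1.00, the kinetochore gene Spc25 by 1.17 and the spindle gene Tacc3 by 1.21 (adjusted p of 0.0139, 0.0202 and 0.0213). Among S phase genes the helicase Blm rose by 0.96 ± 0.21 (adjusted p = 0.0147) from 3.75 ± 0.745 CPM in control to 7.29 ± 1.18 in LPS (SD, n = 3). The recombination mediator Brca2 rose by 0.70, E2f2, an activator E2F, by 0.62 and Chaf1b, of chromatin assembly, by 0.99 (adjusted p of 0.0175, 0.0311 and 0.0363). Against LPS, RSBD moved 0 of these genes past the threshold, and the smallest p belonged to Gins1 and E2f2 among S phase genes (-0.54 and -0.35, adjusted p of 0.528 and 0.548) and to Kif15 and Cks1b among mitotic genes (-0.70 and -0.53, adjusted p of 0.489 and 0.525).

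Genes of G1 and cell cycle inhibitors gave 3 calls of 35 after LPS (median 0.07), all higher, a share near the 8.79% of all tested genes. Ccnd3, a D-type cyclin, stood at 100.6, 87.4 and 116 CPM in control, 186, 181 and 156 in LPS and 124, 134 and 138 in RSBD. It rose by 0.78 ± 0.11 after LPS (adjusted p = 0.00417), and its RSBD libraries lay between the other groups (-0.40 ± 0.11 against LPS, adjusted p = 0.391). The inhibitor Cdkn2c rose by 0.73 and the antiproliferative gene Btg1 by 0.39 (adjusted p of 0.0339 and 0.0393). The D cyclins Ccnd1 and Ccnd2 stood at -0.08 and -0.20, and the transcription factors Myb and Mybl2 at -0.21 and 0.17, none of them called in any comparison. Cdkn1a, the p53-induced inhibitor p21, was at 88.1 ± 16.8 CPM in control, 93.3 ± 18.3 in LPS and 64.4 ± 7.20 in RSBD (SD, n = 3), a log2 difference of -0.53 ± 0.17 between RSBD and LPS (adjusted p = 0.411).

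Some marker lists of cell types that can divide or arrive in injured lung held genes that differed between the groups and others held none, and their part in the results was not tested. Of all tested genes, 8.79% were higher after LPS and 1.89% were higher in RSBD than in control. The 10 markers of neutrophil precursors summed to 102 to 402 CPM in control, 444 to 1495 in LPS and 149.7 to 441 in RSBD, with 2 of 10 higher after LPS, and within them Mpo stood at 0.637 to 9.82, 4.07 to 22.7 and 0.165 to 1.27. In RSBD 2, the library with the highest mitotic score, they summed to 149.7. Markers of mature neutrophils summed to 713 to 2115, 2176 to 5896 and 581 to 3191 CPM (0 of 6 higher). Markers of recruited monocytes summed to 232 to 302, 430.1 to 598 and 326 to 501 CPM (3 of 5 higher after LPS), those of alveolar macrophages to 1153 to 1523, 1722 to 3572 and 812 to 1626 (2 of 6 higher), and those of endothelium to 2031 to 2187, 2332 to 2779 and 2340 to 2634 (2 of 6 higher). NK cell markers summed to 9.93 to 12.3, 25.1 to 41.1 and 38.9 to 53.3 CPM, with 4 of 6 higher after LPS and 5 of 6 higher in RSBD than in control. T cell markers summed to 81.8 to 92.7, 109 to 132 and 91.2 to 227 CPM (0 of 6 higher). The value of 227 was that of RSBD 2, in which Cd8a stood at 56.9 CPM against 17.3 and 21 in the other RSBD libraries. RSBD 2 also had the highest sums of the 9 libraries for fibroblasts (808 CPM), smooth muscle (416), plasma cells (3581) and dendritic cells (118). It had the lowest sums for mature neutrophils (581) and alveolar type 1 cells (1031). Thymocyte markers, whose presence would mark thymus in a sample, summed to at most 0.678 CPM in any library, and 0 of 4 reached the test. Erythroid precursor markers summed to 117 to 126, 79.0 to 109.7 and 82.0 to 109 CPM, with 1 of 5 tested markers higher after LPS and Klf1 at 0.163 to 0.569 CPM over the 9 libraries.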

How the data were processed

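The authors deposited, per gene and library, expected counts (estimated counts, whole numbers in every cell, used unrounded) and TPM for 21930 protein-coding genes. Per the labels' protocols, mRNA was enriched and paired-end, strand-specific libraries were sequenced. Per the submitters' processing notes, the tools were DESeq2 1.38.3, StringTie 2.2.0, HISAT2 2.2.1 and fastp 0.23.2, without roles, on GRCm38 (mm10). The counter, annotation release and strand setting were not given in the sources used here.

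Counts were tested in R 4.3.3 with edgeR 4.0.16 (filterByExpr with a minimum count of 10 and a minimum total of 15, TMM, robust quasi-likelihood fit of all 9 libraries by group, 2-sided, Benjamini-Hochberg over the 15636 genes tested, threshold 0.05). The median SE was 0.15 and the common biological coefficient of variation 0.19. Alternatives were RLE scaling, DESeq2 1.42.0, no filter, limma 3.58.1 on log2(TPM + 1) and log2(TPM + 0.1), only the groups compared, a replicate block and leaving out each library. Scores used a prior count of 2 and were not tested. TPM of the authors served to compare levels between genes. The tests were checked on simulated data.

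Members and lists were chosen with earlier results of these data known. All 49 members could be named, with values per library for those called in any comparison or, in a role without a call, the member with the highest TPM. From each further list the 4 genes with the smallest p after LPS and the 2 with the smallest p between RSBD and LPS were named, plus Cdkn1a, Ccnd1, Ccnd2, Myb and Mybl2. Genes sharing exons with members and Bub1 were added after values were seen. Promoters are from RefSeq (GRCm38.p6), and exon overlaps from GENCODE M21, in which 49 of 49 members had the deposited coordinates. The columns named RS were matched to the RSBD libraries by group and number.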

Additional observations from a re-analysis of the deposited data

How the results depend on the processing

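Of the values recomputed under the alternatives, 417 were kept, 141 kept direction but lost the threshold, 70 moved and 0 reversed. Only members called in the main fit were judged by direction and side of the threshold. A change of sign in any other value could therefore not be scored as reversed. Medians and scores were kept if they moved by less than the spread. Counts of calls were kept if they stayed within a fixed fold of the main count. DESeq2 called more members, 8 S phase and 20 mitotic after LPS and 6 and 12 between RSBD and control. Limma called 3 and 7 after LPS with pseudocount 1, 3 and 6 with pseudocount 0.1, and 1 and 0 between RSBD and control with either. With only the 2 groups compared, 1 S phase and 0 mitotic members differed between RSBD and control. After LPS the calls over all genes were 2723, 3840 by DESeq2, and 1996 and 1987 by limma with pseudocounts 1 and 0.1. Over all genes, RSBD against control gave 578 calls, 1757 by DESeq2, and 275 and 302 by limma with pseudocounts 1 and 0.1, and RSBD against LPS gave 0, 159 by DESeq2, 1 by limma with either pseudocount and 1 with only those groups. The cause of these differences was not tested.

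Leaving out single libraries gave 786 to 2870 genes after LPS (2723 with all), 94 to 961 between RSBD and control and 0 to 4 between RSBD and LPS. It gave 1 to 6 S phase and 1 to 18 mitotic members after LPS, and 1 to 3 and 0 to 2 between RSBD and control. Between RSBD and LPS it gave 0 of either. On log2(TPM + 1) the S phase scores were -0.42 in control 1 and 0.27, 0.039 and 0.051 in LPS 1 to 3, and the mitotic score of LPS 3 was 0.19. The median of all genes was -0.10 after LPS on log2(TPM + 0.1).

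Labels number the replicates 1 to 3 in each group, but same-numbered libraries did not deviate together (correlations of -0.21 to 0.12), so the numbers are not taken as pairs. With the replicate block 5 S phase and 10 mitotic members were called after LPS, 1 and 0 between RSBD and control (240 genes), and 0 between RSBD and LPS. With 3 libraries a group and most mitotic genes under 10 CPM, the median 95% interval of a mitotic gene reached 0.80 to either side after LPS, so changes of a gene within its own interval could be missed.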
